A study of Caenorhabditis elegans with 3 samples.

Results

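Muscle of the nematode Caenorhabditis elegans is anchored to the body wall through integrin adhesions, and 10 genes of these structures, chosen by symbol, are described here. They encode a matrix ligand (unc-52), the integrin chains (pat-2, pat-3), the proteins that sit on the integrin tail (unc-112, pat-4, unc-97, pat-6), a further LIM domain protein (unc-95) and the proteins that tie actin to the adhesion (deb-1, atn-1). Of the 10 genes, 8 had a probe assigned to exactly 1 gene, among 15143 genes tested. No probe carried the name of unc-95, on chromosome I, or of deb-1, the vinculin gene on chromosome IV, so neither has a value here.

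The tested material was RNA of late L3 hermaphrodites, larvae of the stage before L4, in 3 preparations (preps 1, 2 and 3), and each was hybridised with a wild-type mixed reference on its own 2-colour array. The labels give no genotype or strain for the larvae, no stages for the reference, and no word on separate cultures, so p-values measure the spread between these 3 preps, which may be technical. Values are log2 ratios, with the median of each array set to 0. Late L3 over reference is the likely direction: the descriptions name the larvae first, but neither the dyes nor the numerator is given, and with the other direction every sign below turns round.

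As background, a dense body is the nematode's counterpart of the vertebrate Z-disc, and it fixes the thin filaments of body wall muscle to the cell membrane. The M-line does the same for the thick filaments. At both sites an integrin made of an alpha and a beta chain reaches through the membrane to the basement membrane outside, and a set of adaptor proteins gathers on its short inner tail. The chain from matrix to sarcomere carries the force of contraction to the epidermis and cuticle. Mutants that lack several of these proteins stop as paralysed embryos at the stage of elongation that gives the pat genes their name.

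Of the 8 measured genes, the matrix ligand and atn-1, with deb-1 unmeasured the sole gene of the actin side, stood highest above the reference. The perlecan gene unc-52 and the alpha-actinin gene atn-1 had mean log2 ratios of 2.63 ± 0.53 and 2.26 ± 0.54 (SD, n = 3 preps), which are 6.18-fold and 4.79-fold. The alpha integrin gene pat-2 and the kindlin gene unc-112 followed at 1.41 ± 0.07 and 1.29 ± 0.24, and the integrin-linked kinase gene pat-4 at 0.97 ± 0.27. For the parvin gene pat-6, the PINCH gene unc-97 and the beta integrin gene pat-3 the difference from the array median did not pass the threshold. In all, 5 of the 8 measured genes were higher at an adjusted p under 0.05 by limma and 0 were lower. Over all genes tested, 11.4% were higher and 11.9% lower by the same test. In whole larvae, more muscle cells for the RNA sampled and more RNA per muscle cell cannot be told apart.

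**Figure D1:**
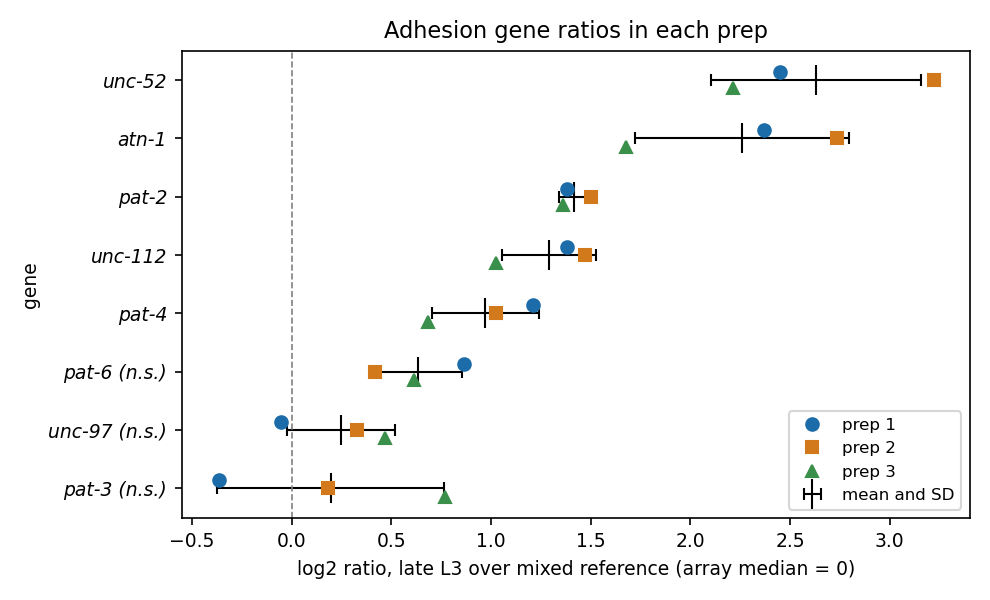
Log2 ratios of the 8 measured attachment genes (rows, highest mean on top) in preps 1, 2 and 3 (blue circles, orange squares, green triangles), with the mean and SD of the 3 preps in black and 0 marking the array median; n.s. stands for an adjusted p of 0.05 or more. All values of unc-52 lay between 2.21 and 3.22, while those of pat-3 lay on both sides of 0, between -0.37 and 0.77.

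The ligand, unc-52 (ZC101.2, chromosome II), encodes perlecan, a large proteoglycan that lies in the basement membrane between muscle and epidermis and is needed for the adhesions to assemble. Its log2 ratios were 2.45, 3.22 and 2.21 in preps 1, 2 and 3. Prep 2 was the high sample and prep 3 the low one, and all lay far above the median. The 95% interval of the mean in the limma fit ran from 2.08 to 3.18, with an adjusted p of 6.6e-05. Within the arrays it ranked at the 99.1, 99.4 and 99.3 percentile of all genes tested, so its rank hardly moved although its ratio did. By its mean it had rank 90 from the top.

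The integrin of body wall muscle pairs the alpha chain PAT-2 with the beta chain PAT-3, and the genes of these partners had unlike ratios. The alpha chain gene pat-2 (F54F2.1, chromosome III) was at 1.38, 1.499 and 1.36 in preps 1, 2 and 3. These values lay close together: the SD of pat-2 was at the 3.43 percentile of the SDs of all genes. Its mean of 1.41, with a 95% interval of 0.96 to 1.87, passed the threshold (limma, adjusted p = 0.000887). The beta chain gene pat-3 (ZK1058.2, chromosome III) was at -0.37, 0.18 and 0.77. Prep 1 was below the array median and prep 3 well above it, and the mean of 0.19 ± 0.57 did not pass (adjusted p = 0.624). The 95% interval for pat-3, -0.37 to 0.76, still includes a difference of over 1.5-fold.

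Within each array pat-2 stood above pat-3, by 1.75, 1.32 and 0.59 log2 units, a mean difference of 1.22 ± 0.58. That gap was present in all preps but was smallest in prep 3, where the ratios of all probes were also least spread. An exact sign permutation test over 3 arrays cannot give a 2-sided p below 0.25, so no difference between genes can pass a test of that kind here. PAT-3 is the only beta integrin chain of the worm, and it also pairs with the alpha chain INA-1 in cells outside muscle. The gene ina-1, picked with its values already in view, was at 0.57, -0.19 and 0.70 and did not pass either (mean 0.36, adjusted p = 0.315). In all preps pat-2 was thus above both ina-1 and pat-3.

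Ratios also varied along the order of the probe identifiers, and the sources used here do not say what that order stands for. For pat-3 the median of its probe and the 100 probes on either side was -0.68 in prep 1, against -0.09 and 0.11 in preps 2 and 3. For pat-2 it was -0.03 in prep 1, so the gap between pat-2 and pat-3 in that prep narrows once this local median is subtracted. Other genes lay where this local median was high: it was 0.54 for atn-1 and 0.33 for unc-97 in prep 1, and 0.37 and 0.36 for unc-52 in preps 1 and 2. With the running median subtracted, unc-52 averaged 2.37, atn-1 2.07 and unc-97 0.10, all lower than without this step, and the first 2 still passed. By the same step pat-3 averaged 0.42 and still did not pass (adjusted p = 0.143, over a range of 0.143 to 0.881 across the alternatives). In the ratios without this step, the mean of pat-3 was -0.093 when prep 3 was left out. The sign of its mean before this step thus rests on prep 3.

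Of the proteins on the integrin tail, UNC-112 is the worm kindlin, which binds the tail of PAT-3 and recruits PAT-4. Its gene unc-112 (C47E8.7, chromosome V) was at 1.38, 1.47 and 1.02 in preps 1, 2 and 3. All values were above 1, so the transcript was more than 2-fold over the reference in each prep. The mean of 1.29, with a 95% interval of 0.81 to 1.77, had an adjusted p of 0.00189. Its ratio was close to that of pat-2: the pair differed by 0.0021 in prep 1, 0.03 in prep 2 and 0.34 in prep 3, a mean of 0.12 that was smaller than its SD of 0.19.

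PAT-4, PAT-6 and UNC-97 are the worm forms of integrin-linked kinase, parvin and PINCH, which form a single complex in other animals. Integrin-linked kinase acts here as a scaffold more than as an enzyme. Its gene pat-4 (C29F9.7, chromosome III) was at 1.21, 1.02 and 0.68, with a mean of 0.97 and a 95% interval of 0.49 to 1.45. It passed the threshold (adjusted p = 0.00956), but it was the called gene with the smallest ratio, and without prep 2 its adjusted p was 0.0584 at a mean of 0.95. Over all alternatives its adjusted p ran from 0.00452 to 0.0584.

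The parvin gene pat-6 (T21D12.4, chromosome IV) was at 0.86, 0.42 and 0.61. All preps were above the array median, and the 95% interval of the mean, 0.16 to 1.11, lay above 0, but the adjusted p of limma over all genes was 0.0576. It passed with quantile normalization (0.0344), with array weights (0.0413) and with the identifier trend removed (0.0316), within a range of 0.0316 to 0.264 over the alternatives. The PINCH gene unc-97 (F14D12.2, chromosome X), whose protein consists largely of LIM domains, was at -0.05, 0.33 and 0.47. Prep 1 was at the median and the others a little above, and the mean of 0.25 ± 0.27 did not pass (adjusted p = 0.451, 95% interval -0.23 to 0.73). That mean was 0.40 without prep 1, 0.14 without prep 3 and 0.10 with the identifier trend removed, and it passed in none of them.

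With the identifier trend left in, the genes of the complex thus ran in the order pat-4, pat-6, unc-97 in every prep. The step between pat-4 and pat-6 was 0.35, 0.60 and 0.07 log2 units, with a mean of 0.34 ± 0.27. Between pat-6 and unc-97 it was 0.92, 0.09 and 0.14, with a mean of 0.38 that did not exceed its SD of 0.46. From pat-4 to unc-97 the distance was 1.26, 0.70 and 0.21, a mean of 0.72 ± 0.52, again smallest in prep 3. In prep 1 the local median along the identifiers was 0.25 for pat-4 and -0.17 for pat-6. With the running median subtracted, pat-6 lay above pat-4 in prep 1, while the means kept the order, at 0.84, 0.70 and 0.10. UNC-97 also binds UNC-98, a protein of the M-line. Its gene unc-98, likewise picked with its values in view, was at a mean of -0.11 ± 0.10 and did not pass (adjusted p = 0.735).

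At the inner end, alpha-actinin crosslinks the thin filaments in the dense body and is absent from the M-line. Its gene atn-1 (W04D2.1, chromosome V) was at 2.37, 2.73 and 1.68 in preps 1, 2 and 3. As with unc-52, prep 2 was highest and prep 3 lowest. The 95% interval of the mean was 1.71 to 2.81, the adjusted p was 0.000173, and the gene ranked at the 99.0, 99.0 and 98.2 percentile of the arrays. It stood below unc-52 by 0.08, 0.49 and 0.54, a mean step of 0.37 ± 0.25. The step down to the third gene, pat-2, was larger, at 0.99, 1.23 and 0.31, with a mean of 0.84 ± 0.48. Vinculin, the other dense body protein of the list and the product of deb-1, has no value here, so atn-1 alone stands for the actin side.

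**Figure D2:**
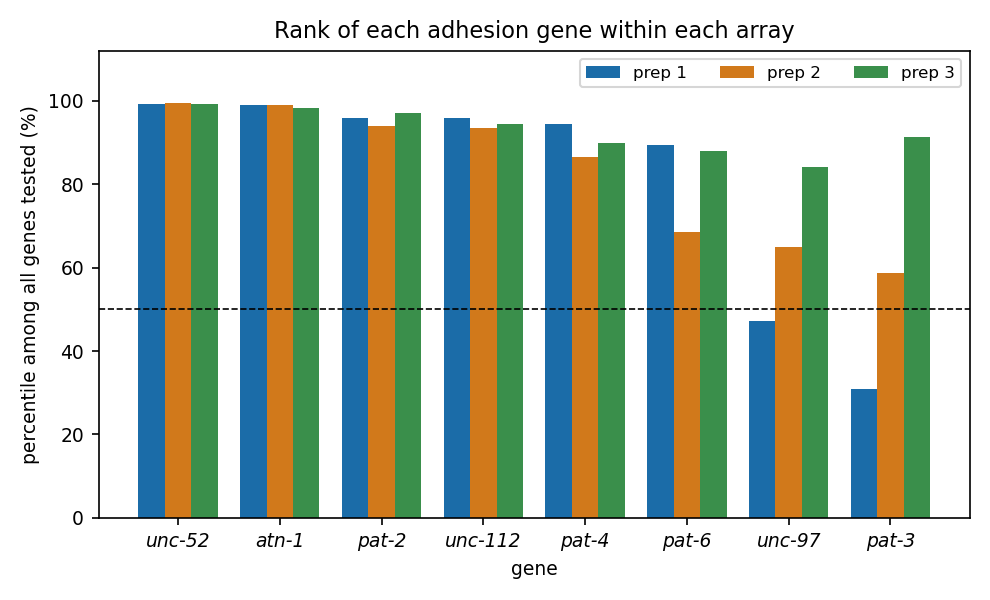
Percentile of each attachment gene among the 15143 genes tested (bars, in percent, from 0), for preps 1, 2 and 3, with genes in the order of their mean log2 ratio; the dashed line is the middle of the array. The bars of unc-52 are nearly level, from 99.1 to 99.4, while those of pat-3 run from 30.8 in prep 1 to 91.4 in prep 3.

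Ranks within an array do not depend on its spread, which differed between arrays. The scaled median absolute deviation of all probes was 0.69, 0.77 and 0.39 in preps 1, 2 and 3, so a given ratio stands further out in prep 3. The median ratio of the 8 genes was 1.29, 1.25 and 0.90, lowest in prep 3. By ratio, 5 of the 8 genes were lowest in prep 3, the array with the least spread. The share of all genes lowest in that prep was not counted, so this count shows no trait of the attachment genes. By rank, pat-2 was lowest in prep 2 and highest in prep 3, at the 96.97 percentile, although its ratio was lowest in prep 3. Both unc-97, at the 84.1 percentile, and pat-3, at the 91.4, were highest in prep 3 by ratio and by rank. With arrays scaled to a common spread, 5 of the 8 genes were again higher and 0 lower. Of the 15143 genes tested, 1623 were higher and 1736 lower in that setting. In every prep 4 of the 8 genes, namely unc-52, atn-1, pat-2 and unc-112, were in the top 10% of the array, as were 4.13% of all genes tested; 4.7% were in the bottom 10% throughout, the share that applies if the direction is turned. Ratios above the array median in all 3 preps were found for 6 of the 8, against 26.8% of all genes. Below it in all preps were 29.2% of all genes, the share for the turned direction. The exceptions among the 8 were unc-97 and pat-3, both below the median in prep 1. With the running median along the identifiers subtracted, pat-3 lay above 0 in prep 1 and unc-97 still lay below it.

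Differences within an array were examined for all 28 pairs of the 8 genes, as a description without a test. The order was the same in all preps for 25 pairs, and for 23 of these the mean difference also exceeded its SD. Each pair was ordered by its means over these same preps. Pairs of other genes were not counted, so these counts show no trait of the attachment genes. In 3 pairs, each with pat-3 as the lower gene, the sign of the difference changed between preps: pat-3 stood above pat-4, pat-6 and unc-97 in prep 3 and below them in preps 1 and 2. Neighbours in the order that did not differ beyond their spread were pat-2 and unc-112, pat-6 and unc-97, and unc-97 and pat-3. From the highest to the lowest gene, unc-52 to pat-3, the distance was 2.82, 3.04 and 1.44 in preps 1, 2 and 3, with a mean of 2.43 ± 0.87. The last place is not settled: unc-97 lay below pat-3 without prep 1 (0.40 against 0.48), with the identifier trend removed (0.10 against 0.42), with arrays scaled to a common spread (0.32 against 0.34) and with array weights (0.27 against 0.29). The counts of pairs above are from ratios with the identifier trend left in. With the running median subtracted, pat-6 lay above pat-4 in prep 1, and unc-112 lay above pat-2 in preps 1 and 2. By the same step pat-3 lay above unc-97 in prep 1 as well as prep 3, and it was nearly level with pat-4 in prep 3.

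**Figure D3:**
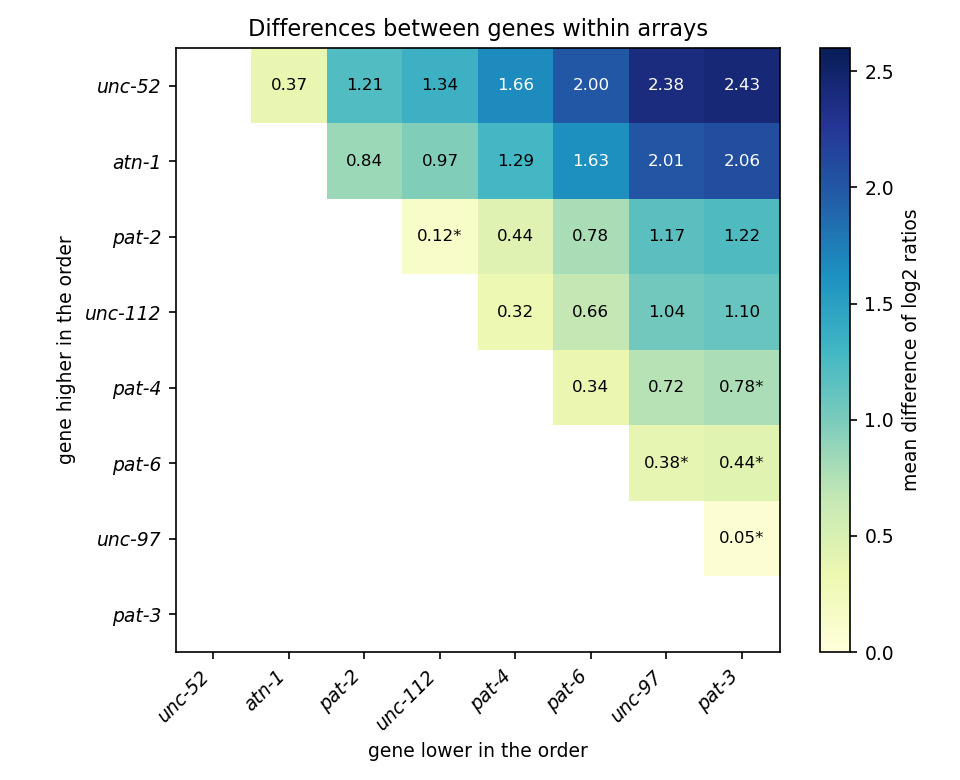
Mean over the 3 preps of the difference in log2 ratio between each pair of attachment genes, taken within each array (gene on the vertical axis minus gene on the horizontal axis; darker means larger). The identifier trend was left in. An asterisk marks the 5 pairs whose difference changed sign between preps or did not exceed its SD; unc-52 and atn-1 stand 2.01 to 2.43 log2 units above unc-97 and pat-3.

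Adhesions hold many other proteins, and a list of 26 further genes of worm adhesion complexes was set beside the 8. Of its 24 measured genes, 5 were higher and 0 lower, and 19 were not past the threshold. Over all genes tested, 11.4% were higher and 11.9% lower. The median log2 ratio was 0.40, against -0.0023 for all genes tested. The higher genes were dim-1, an immunoglobulin domain protein of muscle attachment, at 1.70 ± 0.46, ketn-1, the kettin of the thin filament region, at 1.61 ± 0.35, unc-89, the obscurin of the M-line, at 1.49 ± 0.57, fhod-1, a formin that acts on actin, at 1.07 ± 0.33, and pak-1, a p21-activated kinase picked with its values in view, at 0.97 ± 0.50. Their adjusted p-values lay between 0.000669 and 0.0170. Talin, which links the integrin tail to actin, is encoded by tln-1, also picked with its values in view. It was at -0.21, 0.66 and 0.48 and did not pass (mean 0.31, adjusted p = 0.378). The count of higher genes in this list was 8 without prep 1, 8 with the identifier trend removed and 3 without prep 2. Over the whole table the counts were 1741, 1742 and 761 in that order, against 1720 in the main fit.

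The filaments that the adhesions hold gave more calls. Of 20 measured contractile genes of body wall muscle, 17 were higher and 0 lower (11.4% and 11.9% of all genes tested), with a median of 1.51. Among them the myosin gene myo-3 was at 2.76 ± 1.12, the troponin T genes mup-2 and tnt-2 at 2.47 ± 0.28 and 2.17 ± 0.39, and the paramyosin gene unc-15 at 2.26 ± 0.68. Another myosin gene, unc-54, picked with its values in view, was at 0.48 ± 0.10 and did not pass (limma, adjusted p = 0.126). Without prep 2, 11 of the 20 were higher. Calls fell over the whole table too, to 761 higher of 15153 genes tested, against 1720 of 15143 with all preps. The ratios of unc-52 and atn-1 thus lay among those of the contractile genes furthest from the median, while unc-97 and pat-3, at 0.25 and 0.19, were below the lowest mean among the contractile genes, 0.35.

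On the outer side, 11 of 16 basement membrane genes were higher and 0 lower (median 1.47), beside 11.4% and 11.9% of all genes tested. The type IV collagen gene emb-9 was at 2.99 ± 0.62, the laminin gene epi-1 at 2.77 ± 0.67, nid-1, for nidogen, at 2.17 ± 0.30 and him-4, for hemicentin, at 1.85 ± 0.74, so that unc-52 at 2.63 lay within their range. In the epidermis, which takes up the force from the other side, 8 of 10 attachment genes were higher and 0 lower (median 0.99), led by mup-4 at 2.38 ± 0.51, mua-6 at 1.67 ± 0.67, vab-19 at 1.40 ± 0.26 and ifb-1 at 1.11 ± 0.27.

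**Figure D4:**
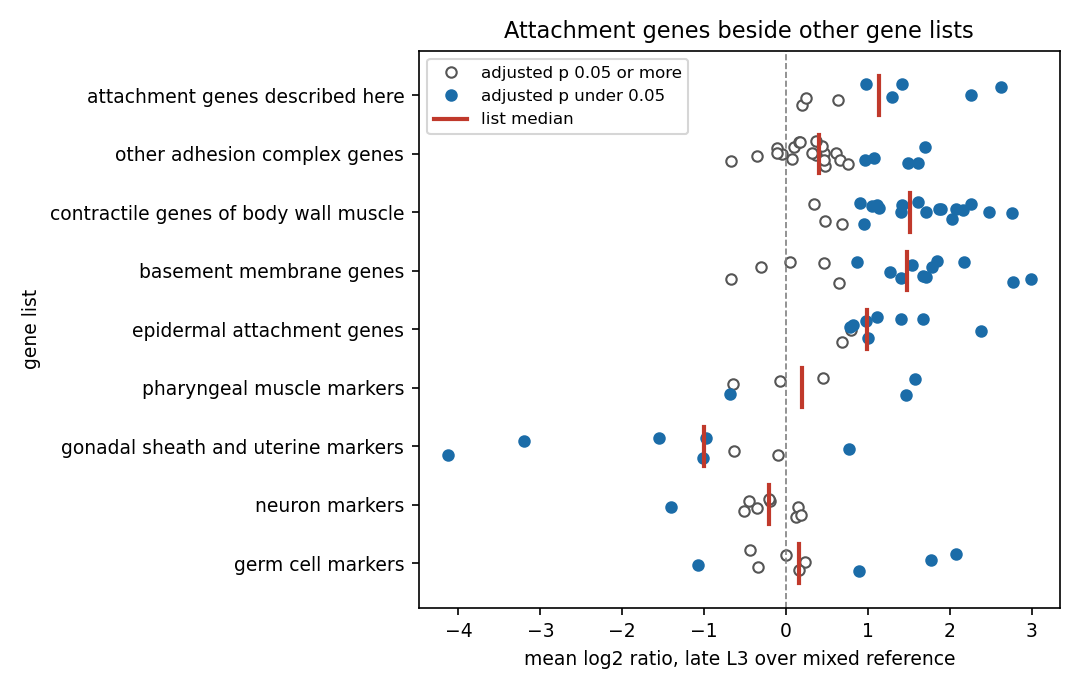
Mean log2 ratio (late L3 over reference) of every measured gene in the attachment list and in 8 other lists, 1 point per gene; filled points have an adjusted p under 0.05, open points do not, and red bars are list medians. The attachment genes have a median of 1.13, between the other adhesion complex genes at 0.40 and the contractile genes at 1.51.

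Integrin adhesion genes also act outside body wall muscle, so markers of other cells were read from the same fit. The shares over all genes tested, to set beside each count here, were 11.4% higher and 11.9% lower. Of 6 pharyngeal muscle markers, 2 were higher, the myosin gene myo-1 at 1.57 ± 0.42 and tnt-4 at 1.46 ± 0.61, and 1 was lower, tnc-2 at -0.68 ± 0.10. The myosin gene myo-2, picked with its values in view, was at 0.45 ± 0.04 and did not pass (limma, adjusted p = 0.148). Gonadal sheath and uterine markers had 1 higher and 5 lower of 8 (median -0.998), with ule-5 at -4.13 ± 0.48, tbh-1 at -3.20 ± 0.49, inx-9 at -1.55 ± 0.61 and inx-8 at -1.02 ± 0.73. Sheath cells are contractile and use some of the same adhesion proteins. Of 9 neuron markers, 0 were higher and 1 was lower, sbt-1 at -1.40 ± 0.27, and ric-4 at -0.51 ± 0.37 did not pass. Among 9 germ cell markers, 3 were higher and 1 was lower, with glh-1 at 2.08 ± 0.42, glh-2 at 1.77 ± 0.47, gld-1 at -1.08 ± 0.30 and pgl-1 at 0.89 ± 0.52. The part of these cells in the ratios of the attachment genes was not tested.

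The genes outside the list whose ratios were closest to the per-array medians of the attachment genes were eps-8, nas-13, ndus-8, nfyb-1 and trd-1. Closeness is the Euclidean distance over the 3 arrays, and it was 0.134, 0.142, 0.154, 0.176 and 0.178 for these genes in that order. The nearest attachment genes were unc-112 at 0.271 and pat-4 at 0.322, and the furthest was unc-52 at 2.64. With 3 arrays, many of the 15143 genes can lie near any such point.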

How the data were processed

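RNA of late L3 hermaphrodites was measured against a wild-type mixed reference on 3 arrays of 2 colours, 1 for each prep. The deposited values are log2 ratios of the 2 channels. Their base was found by raising 2 to each value: of the ratios under 0.3, 100% on each array came to whole thousandths (tolerance 0.01 of a thousandth). The sources used here do not state the image software, spot filters or normalization, and spot intensities were not used, so signal over background is not known and the number of arrays limits the precision.

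Of 20000 probes, between 19855 and 19909 had a value per array, and 15655 were given 1 gene by the platform annotation. Their names were updated through the RefSeq table of assembly WBcel235 (15569 by gene ID, 7 by accession, 79 kept). That table also gave chromosomes and sequence names; no coordinates are given. After the median of each array was subtracted, values were averaged by gene (each measured attachment gene had 1 probe). For the 15143 genes measured on every array, limma 3.58.1 (R 4.3.3; lmFit, eBayes, 2-sided) compared the mean with 0, with Benjamini-Hochberg adjustment over all genes and a threshold of 0.05. The reference's own spread does not enter this fit, which used a prior SD of 0.397 on 7.93 degrees of freedom. The fit was also run on values simulated from its own model. Those values had no difference in spread between arrays and no identifier trend, so that run cannot speak for either. Plots were made in Python 3.11.15 with matplotlib 3.10.9.

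The attachment genes and the gene lists were chosen with earlier results of these data known, so their counts stand beside those of all genes and no list was tested. Named are all attachment genes, from each other list up to 4 genes past the threshold, by size of the mean (the 2 with the largest means where fewer than 2 passed), and the 5 genes closest to the attachment genes' medians. Genes picked outside this rule are marked as such. Alternatives covered centring, scaling, quantile normalization, several probes per gene, missing values, robust and weighted fits, a trend along the identifiers, a stricter threshold and leaving out each prep.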

Additional observations from a re-analysis of the deposited data

How the results depend on the processing

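Across 13 alternatives, between 4 and 6 of the 8 attachment genes were higher and 0 were lower. The count of 4 came without prep 2, where 761 of 15153 genes tested were higher. The count of 6 came with quantile normalization (2073 of 15143 higher), array weights (1684) and the identifier trend removed (1742). Over the whole table between 1001 and 2099 genes were lower. The 4 genes unc-52, atn-1, pat-2 and unc-112 passed under every alternative run, with means of 2.33 to 2.84, 2.02 to 2.55, 1.37 to 1.53 and 1.20 to 1.43. The call of pat-4 ended without prep 2 (mean 0.95, adjusted p = 0.0584), and pat-6 passed with quantile normalization, array weights and the identifier trend removed, at 0.68, 0.65 and 0.70. The mean of pat-3 ran from -0.093 without prep 3 (adjusted p = 0.881) to 0.48 without prep 1. The cause of these changes was not tested. Leaving out each prep gave 4 to 5 higher attachment genes, 3 to 8 higher genes of the other adhesion complex list and 11 to 18 higher contractile genes, and 761 to 1741 higher and 1002 to 1541 lower genes over the whole table, fewest without prep 2, against 1720 and 1804 with all preps. With quantile normalization 1 gene of the other adhesion complex list was lower, beside 2099 lower genes over the whole table. With the identifier trend removed 8 genes of that list were higher, beside 1742 over the whole table. At an adjusted p under 0.01, 890 genes were higher and 1001 lower over the whole table. No paired analysis was possible because the labels give a single group, with no second group that shares its replicate numbers; the pairing of each prep with the reference is already in the ratio of its array.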
